A study of Mus musculus with 598 samples.

Results

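The 40 cells described here are the E6.75 (embryonic day) wild type cells with the highest joint level of Etv2 and Kdr, taken from 83 and 89 wild type cells of that stage in 2 library sets and from 598 cells in the whole series. Etv2 is an ETS transcription factor that starts the endothelial and blood programme, and Kdr is the VEGF receptor through which mesoderm cells respond to VEGF. Each cell was scored by the mean of log2(CPM + 1) of the 2 genes, where CPM is a gene's read count scaled to the same total of reads on genes in every cell and 1 CPM is added so that cells without reads can be scored. The 20 highest cells of each set were taken, and the other 63 cells of set 1 and 69 cells of set 2 were the comparison. The cells were chosen by the Etv2 and Kdr values themselves, so those levels are a description of the choice and are not a result.

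The study took mouse embryo cells at gastrulation by their green Mesp1-GFP reporter signal and made 1 library from each. Its 3 groups, all GFP-positive, were wild type at E6.75, knockout (KO) at E6.75 (85 cells) and wild type at E7.25. The labels do not say which gene the knockout removed, and they name no strain, embryo, litter or pool for these cells. The sample protocol speaks instead of marrow from adult C57BL/6 mice, which does not match embryonic cells. The library sets are not in the labels either: 8 genes separate them (Foxe1, Dusp15, Kcnk12, Pou3f3, Six3, Vax1, Sox3 and Hoxd13), of which every set 1 cell had reads of all 8 and a wild type E6.75 cell of set 2 had reads of 0 to 4. In this stage and genotype the sets follow the numbering of the cells, with cells 1 to 83 in set 1 and cells from 84 on in set 2.

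Since no embryo is named, a set counts as a single sample of cells, and no p-value across cells was computed. A gene was called when its ratio of summed CPM, with 1 CPM added, was at least 2-fold in the same direction in both sets. The 95% intervals given are exact Poisson ones for sums of reads and exact Clopper-Pearson ones for shares of cells. The Poisson ones treat reads as independent. Copies of 1 molecule made by PCR were not removed by identifiers, so these intervals can be too narrow. They also leave out the spread between cells, and neither kind covers differences between embryos. Depth was alike in both arms: the median high and other cell had 739676 and 688840 reads in set 1, and 1803500 and 1782570 in set 2. After thinning every cell to 100000 reads, the median high and other cell had 7078 and 6903 genes in set 1 and 8440.5 and 8308 in set 2. Y-linked reads were found in 9 of 20 high cells (45%) and 44 of 63 other cells (69.8%) of set 1 and in 0 cells of set 2, so the arms of set 1 differ in the share of cells with such reads. Split by such reads, set 1 gave with set 2 a share of genes higher in both of 0.711% (cells with) and 0.993% (cells without), beside 0.955% unsplit.

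Mesp1 marks the first mesoderm that leaves the primitive streak, and its descendants form heart, vessels, blood and much of the head mesoderm. Etv2 is switched on briefly in the posterior and extraembryonic part of this mesoderm, together with Kdr. Downstream of it lie transcription factors such as Tal1, Gata2, Fli1 and Sox7, and later the surface genes of a finished endothelial cell, such as Cdh5 (VE-cadherin), Pecam1 and Tek. Extraembryonic mesoderm, which builds the allantois, amnion and yolk sac, is marked by Hand1, Bmp4 and Tbx3.

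Upstream sequences are shown for the 2 genes that chose the cells and for Tal1 and Gata2, the 2 haemato-endothelial factors that were higher with them. Each run is the 250 bases before the start given by RefSeq on GRCm38.p6, written 5′ to 3′ on the gene's own strand. The stretches are chr7:30635853-30636102 for Etv2 and chr5:75978456-75978705 for Kdr, both minus strand, and chr4:115056176-115056425 for Tal1 and chr6:88193641-88193890 for Gata2, both plus strand and each at 1 of 2 starts listed. Capitals mark matches to the ETS core AGGAAG, to the E-box CAGATG or to the site AGATAA bound by GATA factors. Each was searched on both strands, and no 2 matches overlap.
Etv2: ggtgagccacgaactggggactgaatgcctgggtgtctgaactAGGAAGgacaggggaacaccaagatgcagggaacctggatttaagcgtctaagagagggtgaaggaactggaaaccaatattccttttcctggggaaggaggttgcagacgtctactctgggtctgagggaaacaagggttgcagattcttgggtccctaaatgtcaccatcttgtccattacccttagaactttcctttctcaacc
Kdr: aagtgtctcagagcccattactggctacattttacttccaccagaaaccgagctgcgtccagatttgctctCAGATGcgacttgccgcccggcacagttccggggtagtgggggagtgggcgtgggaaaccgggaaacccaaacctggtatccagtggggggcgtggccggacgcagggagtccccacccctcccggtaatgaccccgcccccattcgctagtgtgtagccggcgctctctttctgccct
Tal1: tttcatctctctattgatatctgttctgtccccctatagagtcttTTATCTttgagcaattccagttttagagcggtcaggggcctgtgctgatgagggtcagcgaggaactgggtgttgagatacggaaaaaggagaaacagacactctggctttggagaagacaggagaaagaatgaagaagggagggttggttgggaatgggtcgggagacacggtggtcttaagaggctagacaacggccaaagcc
Gata2: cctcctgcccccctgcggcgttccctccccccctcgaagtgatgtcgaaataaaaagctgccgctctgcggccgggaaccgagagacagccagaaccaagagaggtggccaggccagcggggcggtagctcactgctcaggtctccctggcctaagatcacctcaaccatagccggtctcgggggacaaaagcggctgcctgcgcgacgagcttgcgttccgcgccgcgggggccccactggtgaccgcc
Counted from the first base printed, the ETS letters begin at base 44 of the Etv2 run, the E-box letters at base 72 of the Kdr run, and the GATA letters, on the opposite strand, at base 46 of the Tal1 run. The Gata2 stretch held none of these letters. Such matches are common: windows of this length held the ETS letters in 29.2% of 27025 listed promoters, the E-box letters in 14.54% and the GATA letters in 10.2%. Among the promoters of genes higher in both sets, 16 of 80 (20.0%) held the ETS letters, against 26.7% of the 8989 promoters of tested genes. For the GATA letters these shares were 8.75% against 5.27%, and for the E-box letters 10% against 9.21%.

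Etv2 (chromosome 7, 30633616 to 30635852, minus strand, GRCm38) ranged over the 20 high cells of set 1 from 22.1 to 2391 CPM with a median of 456, and over those of set 2 from 17.4 to 1923 CPM with a median of 112.3. In the other cells the median was 8.25 CPM in set 1 and 11.1 in set 2, and the highest cell had 81.9 and 81.2 CPM. Above 100 CPM of Etv2 lay 16 high cells of set 1, 10 of set 2 and none of the other cells. Kdr (chromosome 5, 75932827 to 75978458, minus strand) ranged from 34.2 to 709 CPM (median 254.5) in set 1 and from 90.99 to 968 CPM (median 224.2) in set 2. Both genes overlapped between the arms when taken alone. Over 100 CPM of Kdr was found in 12 other cells of set 1 and 7 of set 2, and over 100 CPM of Etv2 in none.

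**Figure D1:**
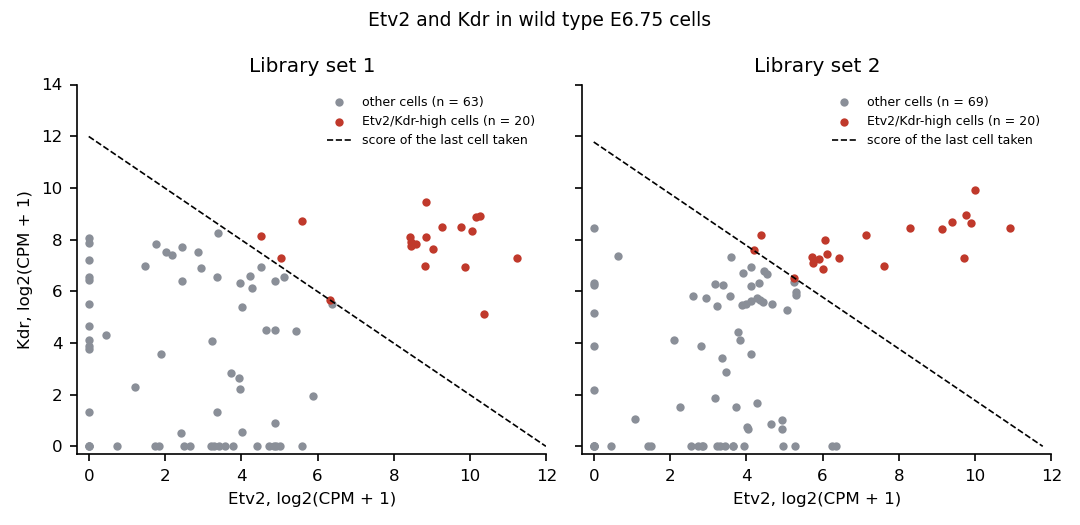
Etv2 (horizontal) against Kdr (vertical) as log2(CPM + 1) in each wild type E6.75 cell of library set 1 (left) and set 2 (right); red points are the 20 high cells of a set, grey points the other 63 and 69, and the dashed line is the score of the last cell taken. Etv2 is above 100 CPM in 16 high cells of set 1 and 10 of set 2, and in no grey point.

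The score cut runs through a continuum. The last cell taken in set 1 had a score of 5.99 (Etv2 79.7, Kdr 49.4 CPM) and the first left out 5.93 (81.9 and 43.9 CPM). In set 2 these were 5.89 (37.1 and 90.99 CPM) and 5.80 (37.4 and 80.2 CPM). The 20 cells ranked just below the cut had 19.8 CPM of Etv2 and 89.9 CPM of Kdr in set 1, and 19.04 and 76.6 CPM in set 2. Among the 20 high cells, Etv2 and Kdr had a Spearman correlation of 0.047 in set 1 and 0.63 in set 2, given as a description over 20 cells that share 1 set. The cut was made on these same 2 genes, which distorts their correlation within the chosen cells. Over all cells of a set it was 0.36 in set 1 and 0.53 in set 2.

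Over the 12572 genes with at least 1 CPM in each set, Etv2 and Kdr left out, 120 genes (0.955%) were at least 2-fold higher and 2.04% at least 2-fold lower in the high cells of both sets. Counts of called genes in the lists below are to be read beside these shares. Within 1 set the counts were larger: 861 higher (6.85%) and 1657 lower (13.2%) in set 1, and 380 (3.02%) and 577 (4.59%) in set 2. Genes higher in both sets were 13.9% of those of set 1 and 31.6% of those of set 2, and genes lower in both were 15.5% and 44.5%. Another 55 genes higher in set 1 were at least 2-fold lower in set 2, and 75 lower in set 1 were higher in set 2. The 2 deepest high cells gave 34.2% of the high reads in set 1 and 19.01% in set 2, so a single cell can set a sum, and its share is given below where it matters.

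Most haemato-endothelial transcription factors were not called. At the shares over all tested genes, 0.955% higher and 2.04% lower, a list of 8 would mostly hold no call. Of 14 listed factors 8 could be tested, 2 were higher in both sets (Tal1 and Gata2) and 1 was lower (Elk3), with a median log2 ratio of -0.14 against -0.048 over all genes. Tal1 (chromosome 4, 115056426 to 115071755, plus strand), a bHLH factor required for blood and endocardium, was at 14.4 CPM (12.9 to 15.9) against 0.086 in set 1 and 13.9 CPM (12.7 to 15.2) against 0.031 in set 2. With under 1 CPM in the other cells, Tal1 reached the 1 CPM needed for testing only through the high cells. It could therefore be called higher but not lower. Its level came from 4 cells. In set 1, 2 cells held 88.2 and 292.9 CPM and 1 more had 1.11. In set 2 there were 172.8 and 169.1 CPM, and the remaining high cells of both sets had no Tal1 read. The highest other cell had 14.6 CPM in set 1 and 0.80 CPM in set 2. Without the 4 cells the combined log2 ratio, which is the mean of both sets, went from 3.84 to -0.051.

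Etv2 in those 4 Tal1 cells was at 2391 and 866 CPM in set 1 and 1024 and 1923 CPM in set 2, and in the joint score of Etv2 and Kdr they ranked 3 and 6 in set 1 and 1 and 2 in set 2. Other early endothelial factors appeared in the same cells. Sox18 had at least 5 CPM in 3 of the 40 high cells (11.3, 11.4 and 99.2 CPM), and all 3 were Tal1 cells. Sox7, an F-group SOX factor like Sox18, had at least 5 CPM in 2 cells of set 1 (64.7 and 17.9 CPM), again both with Tal1. Only 4 of the 20 high cells of that set had a Sox7 read, with a median of 0, so its summed 5.77 CPM rests on few cells. The 63 other cells of set 1 had no read, which allows a level of up to 0.043 CPM. Against that limit the sum was at least 133.97-fold higher. In set 2 Sox7 had no read in the high cells. Gata2 had 102.5, 39.9 and 23.1 CPM in 3 of the 4, and none in the other. Mesp1 in the 4 cells was at 42.1 and 294.5 CPM in set 1 and at 60.3 and 109.8 CPM in set 2, where the median high cell had 338.4 and 337.5 CPM. These cells were singled out after their values were seen.

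Gata2 (chromosome 6, 88193891 to 88207032, plus strand), a zinc-finger factor of early blood and endothelial progenitors, was spread more widely, and mainly in set 2. It ranged from 0 to 219.4 CPM over the high cells of set 2 with a median of 11.6, and was read in 13 of 20 (65%) against 20 of 69 other cells (28.99%), whose highest value was 227.04 CPM. In set 1 only 3 of 20 high cells had a read (64.2, 102.5 and 11.2 CPM), against 12 of 63. Summed levels were 40.5 against 9.40 CPM in set 2 and 9.16 against 2.49 CPM in set 1, a combined log2 ratio of 1.77. Among the high cells, Etv2 and Gata2 had a Spearman correlation of -0.0024 in set 1 and 0.66 in set 2. With both arms limited to cells of under 1 CPM of Cdh1 (see the epithelial genes) the combined ratio was 0.14, at 1.16 in set 1 and -0.89 in set 2. That limit kept 13 high cells of set 2 and left out those with 219.4 and 171.8 CPM of Gata2. Against the next 20 cells the combined ratio was 0.89.

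The other listed factors were scarce or alike. Fli1, an ETS factor of endothelial cells, was at 0.96 against 1.08 CPM in set 1 and 0.79 against 0.61 CPM in set 2. Lmo2, a partner of Tal1, was at 0.9956 against 2.84 CPM and 6.06 against 3.64 CPM, opposite in the 2 sets. Runx1, a factor of blood formation, was at 5.06 against 6.72 CPM and 3.496 against 4.40 CPM. Lyl1, a close relative of Tal1, had no read in any wild type E6.75 cell. Elk3, an ETS factor of vessel growth, was lower at 0.52 against 4.14 CPM and 1.57 against 4.88 CPM. In set 1 Elk3 reached the 1 CPM needed for testing only through the other cells, so it could be called lower but not higher.

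Surface and adhesion genes of formed endothelium were not called. None of 8 tested members of a list of 21 was higher or lower in both sets, the median log2 ratio was -0.20, and the list summed to 118.8 against 116.9 CPM in set 1 and 151.6 against 116.4 CPM in set 2. With 0.955% of all tested genes higher and 2.04% lower, 8 genes would mostly hold no call either. The 13 members not tested included Cdh5, Pecam1, Tek and Tie1. Cdh5 had 0 reads in all 83 cells of set 1 and in the 69 other cells of set 2, and 0.058 CPM in the high cells of set 2, from 1 cell. Summed over 8 defining surface genes (Cdh5, Pecam1, Tek, Tie1, Cldn5, Emcn, Icam2 and Plvap) the level was 0.080 CPM in high against 1.78 CPM in other cells of set 1, and 3.96 against 1.20 CPM in set 2, with reads in 1 of 20, 12 of 63, 7 of 20 and 17 of 69 cells. Egfl7, a secreted endothelial factor, was present but alike, at 32.6 against 37.7 CPM in set 1 and 36.4 against 36.7 CPM in set 2. Rasgrp3, a RAS activator downstream of VEGF, went opposite ways, at 16.97 against 33.8 CPM and 67.8 against 35.99 CPM. Esam, a listed gene outside those 8, was read in high cells at 74.9 and 20.1 CPM in set 1 and 9.56 and 0.39 CPM in set 2. Clec14a, another, had no read in the high cells of set 1, against 3.53 CPM in the other cells. Neither reached the level needed for testing. Those 8 defining markers taken alone do not back the name endothelial, and the cells are called Etv2/Kdr-high here.

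Blood genes were near 0. None of 13 listed genes reached 1 CPM in both sets, and their summed level was 0.52 against 1.74 CPM in set 1 and 1.25 against 2.83 CPM in set 2. The embryonic globins Hba-x and Hbb-bh1 had no read in any cell of either arm, which allows up to 0.12 CPM in the high cells of set 1 and 0.087 CPM in those of set 2.

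VEGF receptors and co-receptors other than Kdr did not pass in both sets. Nrp2, a co-receptor for VEGF-C and semaphorins, was at 41.8 against 3.13 CPM in set 1, where 1 cell gave 73.8% of the reads, and at 29.2 against 14.8 CPM in set 2, log2 ratios of 3.37 and 0.93. Nrp1, a VEGF-A co-receptor, was at 20.6 against 11.9 CPM and 45.7 against 9.86 CPM, log2 ratios of 0.74 and 2.10. Flt1, a decoy receptor for VEGF, was on the lower side at 14.6 against 33.05 CPM and 30.8 against 44.4 CPM. Over the 8 listed ligands and receptors 4 were tested and 0 were higher or lower in both sets. So few genes would mostly hold no call at the shares over all genes, 0.955% higher and 2.04% lower.

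**Figure D2:**
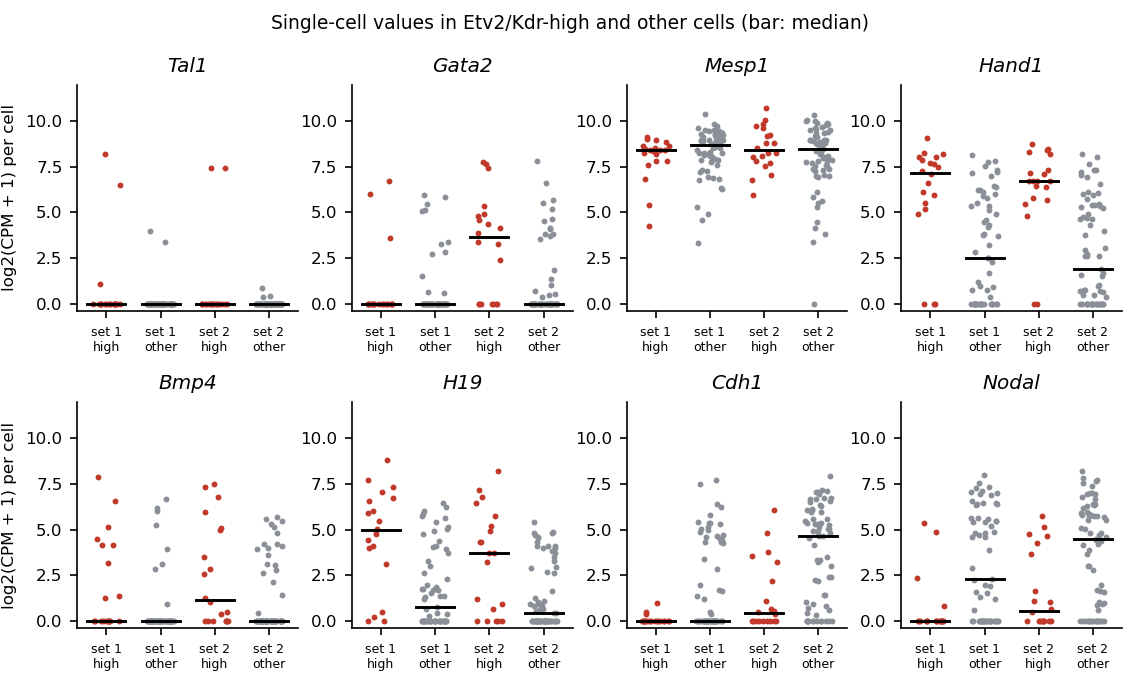
Level per cell, as log2(CPM + 1), of 8 genes in the high (red) and other (grey) cells of each set; each point is 1 cell and bars are medians. Tal1 stands out in 4 high cells, Gata2 mainly in set 2, Hand1 and H19 in most high cells, while Cdh1 and Nodal are at or near 0 in most of them and Mesp1 overlaps.

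Extraembryonic mesoderm genes were higher in 4 of the 7 tested members (Hand1, Bmp4, Pmp22 and Tbx3) of a list of 11, and none was lower, with a median log2 ratio of 1.63. The summed level of the list was 1155.8 against 515.5 CPM in set 2 but 1883 against 1760 CPM in set 1, where the median cell had 2166 against 2202 CPM. Most of the set 1 sum was Foxf1, a forkhead factor of this mesoderm, at 1116 against 1406 CPM there and at 15.4 against 8.64 CPM in set 2. Foxf1 was read in all 83 cells of set 1 and in 14 of 20 high and 18 of 69 other cells of set 2, so its level differed between the library sets far more than between the arms. Msx1 and Msx2, homeobox factors induced by BMP, were not called, at combined log2 ratios of 0.39 and 0.61. Hand1 (chromosome 11, 57828705 to 57832818, minus strand), a bHLH factor of extraembryonic and cardiac mesoderm, ran from 0 to 536 CPM in the high cells of set 1 (median 144.2) and from 0 to 434 CPM in set 2 (median 104.7). Other cells had medians of 4.67 and 2.74 CPM but reached 279.1 and 294.5 CPM, so the arms overlapped, with 3 and 4 high cells above every other cell. Summed, it was at 175.2 CPM (170.1 to 180.4) against 27.5 in set 1 and 169.2 CPM (164.8 to 173.6) against 41.2 in set 2, a combined log2 ratio of 2.32. Reads were found, after thinning, in 85% of high and 44.4% of other cells of set 1 and in 90% and 44.9% in set 2.

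Bmp4, the BMP ligand that allantois and amnion secrete, was at 23.6 against 4.14 CPM in set 1 and 33.2 against 5.23 CPM in set 2. It was a minority gene: 9 of 20 and 13 of 20 high cells had a read, the medians were 0 and 1.25 CPM, and 1 cell of 234.02 CPM gave 78.1% of the reads in set 1. Tbx3, a T-box repressor, was at 84.7 against 20.6 CPM and 377 against 155.96 CPM, with high-cell medians of 76.01 and 305.97 CPM against 1.88 and 64.1. Without the 2 deepest high cells per set its log2 ratios were 2.11 and 0.97, just under 2-fold in set 2. Pmp22, a small membrane protein, had medians of 131.8 and 141.9 CPM against 2.87 and 16.1 CPM. Bmp2, a second ligand of the pathway, was at 9.52 against 4.04 CPM and 14.2 against 4.70 CPM, and the BMP-induced inhibitor Bambi at 235.1 against 113.1 CPM and 249.6 against 106.4 CPM. They were the other called members of the lists of BMP ligands and receptors (2 higher of 9 tested, with Bmp4) and BMP response (1 higher of 7).

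Of 9 tested imprinted growth genes 4 were higher and none lower in both sets, with a median log2 ratio of 0.72. H19 (chromosome 7, 142575529 to 142578143, minus strand), a noncoding RNA made from the maternal allele, had a median of 30.9 CPM over a range of 0 to 445 CPM in the high cells of set 1, and of 12.1 CPM over 0 to 291.4 CPM in set 2. The other cells had medians of 0.69 and 0.37 CPM and maxima of 85.6 and 42.3 CPM, below 6 and 5 of the high cells. Summed levels were 66.7 against 9.58 CPM and 36.4 against 5.96 CPM, a combined log2 ratio of 2.55. Igf2, the growth factor gene beside it, was at 20.2 against 1.54 CPM and 45.4 against 10.01 CPM, at 2.57. H19 in the 4 Tal1 cells was at 445, 16.3, 291.4 and 107.6 CPM, of which only 16.3 CPM lies below the median high cell of its set. Igf2 in these 4 cells was at 147.4, 82.98, 74.7 and 63.7 CPM. Without them the ratios were 1.79 for H19 and 1.82 for Igf2. Phlda2, a maternally expressed gene that restrains placental growth, was read in every cell, at 899 against 396 CPM and 1039.9 against 451 CPM, and Mest at 160 against 35.96 CPM, 75.3% of it from 1 cell, and 132.6 against 61.3 CPM.

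Cardiac progenitor genes were higher in 3 of 9 tested members and lower in none, with a median log2 ratio of 1.04. Nkx2-5, an early heart factor, had a read in 6 of 20 and 8 of 20 of them against 0 of 63 and 2 of 69 other cells. Its level was low, at 4.50 CPM in set 1, where 1 cell gave 79.6%, against a limit of 0.043 CPM for 0 reads (at least 104.4-fold), and 4.92 against 0.031 CPM in set 2. Like Tal1, Nkx2-5 reached the 1 CPM needed for testing only through the high cells, so it could be called higher but not lower. With cells ranked by Kdr alone the Nkx2-5 log2 ratio was -0.021 in set 1 and 2.57 in set 2, so it was not called. After thinning 15% of high cells in each set kept a read and no other cell did. Tbx20, a T-box factor of heart and extraembryonic mesoderm, was at 16.8 against 4.87 CPM and 25.7 against 8.34 CPM. Myl7, a myosin light chain of early heart muscle, had 79.7 CPM beside 16.2 in set 1 and 17.8 beside 6.21 in set 2, although in set 2 the median high cell had 0 and the median other cell 1.91 CPM. Ranked by Kdr alone, Myl7 had a combined log2 ratio of -0.19. Isl1 was above 2-fold only in set 1, at log2 ratios of 1.76 and 0.32.

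Cardiac and haemato-endothelial factors were also counted cell by cell. Counting 5 CPM or more over the 40 high cells, Tal1 was in 4, Nkx2-5 in 5, and both in 1. Tbx20 was in 22 cells and in 0 of the 4 Tal1 cells, and Myl7 in 19 and 1. Hand1 was in 35 cells, among them all 4 Tal1 cells and all 5 Nkx2-5 cells. Gata2 was in 15 and overlapped 4 of the 5 Nkx2-5 cells. Whether these counts depart from chance was not tested.

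**Figure D3:**
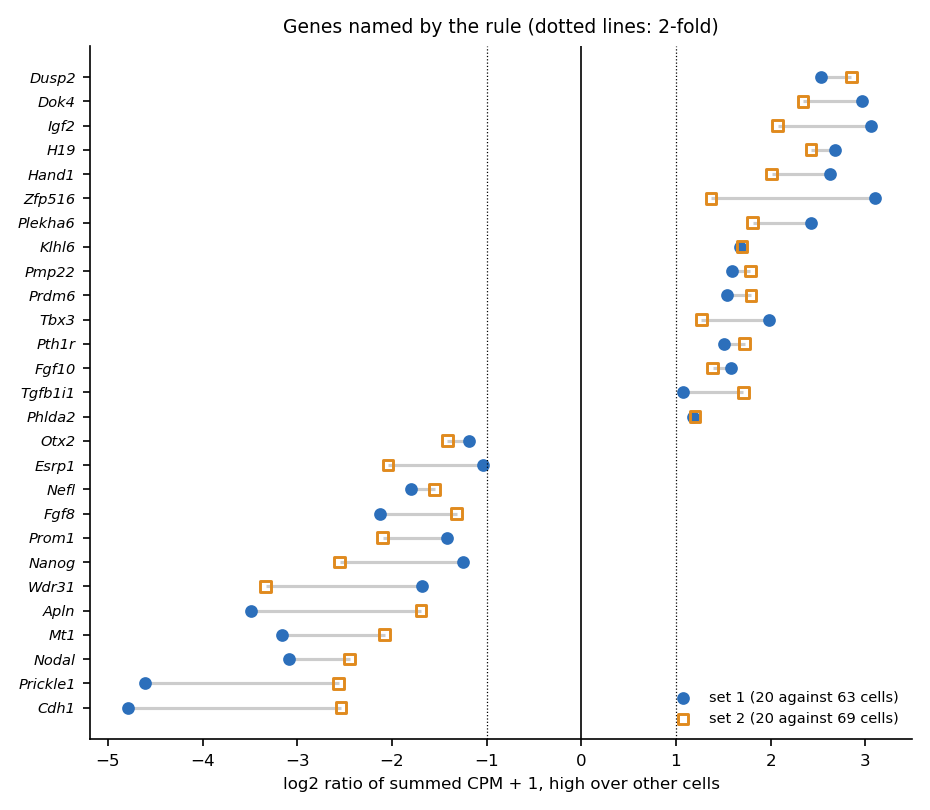
Log2 ratio of summed CPM (1 CPM added) of high over other cells for the 27 genes the naming rule took, in set 1 (circles) and set 2 (squares); dotted lines mark 2-fold. All lie past 2-fold in both sets, which the rule required, and Cdh1, Prickle1 and Apln differ most in size between the sets.

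The naming rule ranked genes called in both sets by their mean difference of log2(CPM + 1) per cell, and its 15 highest included Hand1, Pmp22, Tbx3, H19, Igf2 and Phlda2. Klhl6, a BTB-kelch protein, had medians of 148.2 and 53.1 CPM in the high cells against 2.05 and 0.93 in the others, and a combined log2 ratio of 1.69. Fgf10, a fibroblast growth factor of heart-field mesoderm, had medians of 37.8 and 50.5 CPM against 0.44 and 5.002. Dusp2, a phosphatase that switches off ERK, was at 34.4 against 5.12 CPM and 46.6 against 5.58 CPM, at 2.69. Dok4, an adaptor of receptor tyrosine kinases, was at 51.1 against 5.69 CPM and 45.2 against 8.11 CPM, at 2.65. The others were Prdm6, a PRDM-family repressor of smooth muscle genes, Zfp516, a zinc-finger factor, Plekha6, a protein with a PH domain, Tgfb1i1, a focal-adhesion adaptor, and Pth1r, the parathyroid hormone receptor, at combined ratios of 1.67, 2.24, 2.12, 1.39 and 1.62. Pth1r was under 2-fold in set 1 (0.69) without the 2 deepest high cells per set. Outside the rule, Adra2b, an adrenergic receptor, was at 74.95 against 11.9 CPM and 77.7 against 9.46 CPM; it was chosen after its values were seen.

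Epithelial genes were lower. Of 7 tested, 5 were lower in both sets (Cdh1, Epcam, Cldn6, Cldn7 and Esrp1) and 1, the keratin Krt18, was higher, with a median log2 ratio of -1.54. Cdh1 (chromosome 8, 106603351 to 106670246, plus strand), the E-cadherin that cells lose as they leave the epiblast, ran from 0 to 1.01 CPM in the high cells of set 1 and from 0 to 66.5 CPM in set 2, with medians of 0 and 0.36 CPM. The other cells reached 207.6 and 247.3 CPM, with medians of 0 and 24.6 CPM. Summed levels were 0.20 against 32.2 CPM and 6.88 against 44.7 CPM. In set 1 Cdh1 reached the 1 CPM needed for testing only through the other cells, so it could be called lower but not higher. Cells with under 1 CPM of Cdh1 were 19 of 20 high and 35 of 63 other cells of set 1, and 13 of 20 and 19 of 69 of set 2. Krt18 was at 55.95 against 22.9 CPM and 75.1 against 34.9 CPM, with 1 cell giving 60.7% in set 1. Without the 2 deepest high cells per set the Krt18 log2 ratios were 1.84 and 0.047, no longer 2-fold in set 2.

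Epiblast genes were lower in 6 of 11 tested members (Nanog, Dnmt3b, Otx2, Fgf5, Fst and L1td1) and higher in none, with a median of -1.26. Nanog, a pluripotency factor, had medians of 4.08 and 7.55 CPM in high cells against 45.8 and 55.03 CPM. Otx2, a factor of anterior epiblast, had 17.01 and 75.7 CPM against 175.6 and 158.7. Dnmt3b, the de novo DNA methyltransferase of epiblast, was at 204.2 against 523 CPM and 447 against 1003 CPM. All stayed detectable in some high cells, and the arms overlapped.

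Primitive streak genes split. T, Fgf8 and Nodal were lower in both sets among 11 tested, while Eomes (267.5 against 376 CPM and 481 against 436 CPM) and Mixl1 (733 against 1216 CPM and 1965 against 1914 CPM) were not called. Nodal, the TGF-beta ligand that induces the streak, ran from 0 to 39.5 CPM in the high cells of set 1 (median 0) and from 0 to 52.5 CPM in set 2 (median 0.47), against other-cell medians of 3.88 and 21.6 CPM and maxima of 249.2 and 291.6. Fgf8, an FGF that mesoderm cells need to leave the streak, had medians of 24.4 and 47.2 CPM against 121.7 and 210.3 CPM. T (Brachyury), the streak T-box factor, was at 134.6 against 349.6 CPM and 183.2 against 374 CPM. Mesp1 itself was at 326.9 against 434 CPM and 555 against 419 CPM, opposite in the 2 sets, and its medians were close, at 338.4 against 408 and 337.5 against 349.7 CPM. Within the high cells Etv2 and Mesp1 had Spearman correlations of -0.45 and -0.48 over 20 cells each, given as descriptions.

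Prickle1, a planar cell polarity protein, was lower with a combined log2 ratio of -3.58: its summed level was 1.83 against 67.9 CPM and 11.1 against 70.6 CPM, and no high cell exceeded 36.5 CPM. Apln, the apelin ligand, was at 8.40 against 104.8 CPM and 36.2 against 119.5 CPM, and Apela, a second ligand of the same receptor, and the chemokine Cxcl12 were lower too, 3 of 6 tested genes of their list. Mt1, a metallothionein, was at 5.66 against 58.7 CPM and 16.5 against 72.98 CPM. Among the rule's other lower genes, Prom1, a membrane glycoprotein of epithelial progenitors, Nefl, a neurofilament, Wdr31, a WD-repeat protein, and Esrp1, an epithelial splicing factor, had combined ratios of -1.76, -1.67, -2.51 and -1.54. Without the 2 deepest high cells per set, Prom1 and Esrp1 were at -0.87 and -0.47 in set 1, short of 2-fold. Chosen after values were seen, Psmb8, an immunoproteasome subunit, was at 7.57 against 81.97 CPM and 3.85 against 36.6 CPM, and Parp9, Parp10 and Parp12, ADP-ribosyltransferases of the interferon response, were each under 1 CPM in the high cells of both sets. Their levels in the other cells were 10.8, 8.10 and 4.89 CPM in set 1 and 10.6, 7.72 and 13.4 CPM in set 2. Through those cells alone these genes reached the 1 CPM needed for testing, so they could be called lower but not higher.

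Genes of definitive endoderm and axial mesoderm were lower in 3 of 5 tested (Foxa2, Cer1 and Chrd), with a median of -2.15 that was also -2.15 with groups of 0 reads set to 3 reads. Foxa2 had no read in any high cell, against 5.16 CPM in the other cells of set 1 (at least 43.2-fold lower) and 13.2 CPM in set 2 (at least 150.6-fold lower). It reached the 1 CPM needed for testing only through the other cells, as did Cer1 in set 1, where no high cell had a Cer1 read. Both could therefore be called lower but not higher, which also limits the count and median of this list. Only 9 of 63 and 16 of 69 other cells held a Foxa2 read, and the summed level of this list per other cell ranged up to 915 and 1445 CPM at medians of 1.73 and 11.3 CPM. Among lists of cell types that a sort could carry over, extraembryonic ectoderm (2 tested) and visceral endoderm (2 tested) had 0 called genes. Lists of 2 genes would mostly give that at the shares over all genes. Elf5 and Rhox9 in the first and Cubn and Spink1 in the second had no read in the high cells of either set. The summed level of the visceral endoderm list was 354.7 against 216.2 CPM in set 1 and 188.2 against 117.02 CPM in set 2, with a median log2 ratio of 0.61. Most of it was Apoe, an apolipoprotein not limited to endoderm, at 351.5 against 212.5 CPM and 170.5 against 110.4 CPM, while Ttr and Afp were under 1 CPM in both arms of both sets. The extraembryonic ectoderm list summed to 33.3 against 27.96 CPM and 63.2 against 49.5 CPM, with its largest tested member Gata3 at 25.4 against 16.7 CPM and 50.4 against 26.3 CPM. The part of such cells in the results was not tested.

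**Figure D4:**
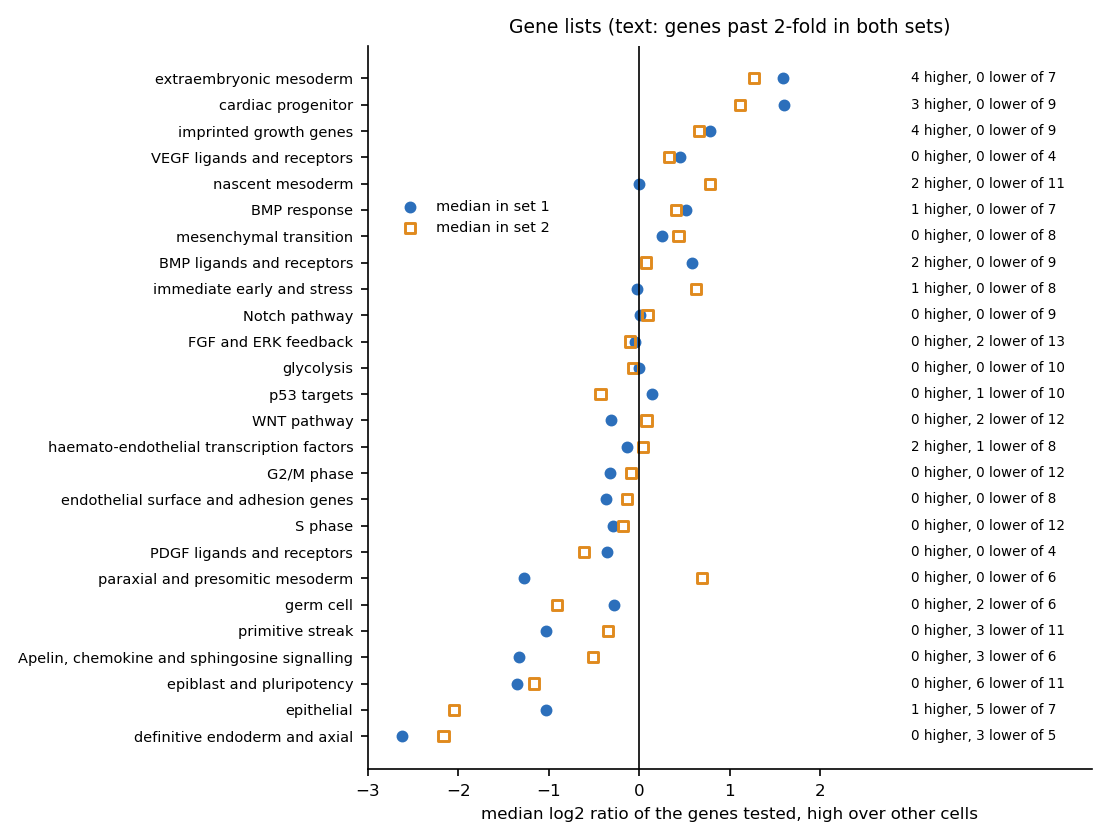
Median log2 ratio of high over other cells in set 1 (circles) and set 2 (squares) for each list with at least 4 tested genes, with the number past 2-fold in both sets at the right. Extraembryonic mesoderm and cardiac progenitor genes lie highest in the mean of both sets, and endoderm and epithelial genes lowest. The epithelial list lies at -1.04 in set 1 and -2.04 in set 2, and the paraxial list lies at -1.28 in set 1 and 0.69 in set 2.

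Several groups showed no called gene in either direction: Notch pathway (9 tested), mesenchymal transition (8), paraxial and presomitic mesoderm (6), PDGF ligands and receptors (4), S phase (12), G2/M phase (12) and glycolysis (10), with medians from -0.28 to 0.25. Over all tested genes 0.955% were higher and 2.04% lower. At those shares lists this small would mostly hold no called gene, so these counts say little about the groups. In FGF and ERK feedback (13 tested) Fgf4 and Fgf8 were lower, in WNT (12) Fzd10 and Sfrp1, in the germ cell list (6) Kit and Dnd1, in p53 targets (10) Sesn2. Atf3 was the 1 higher gene of 8 immediate early and stress genes, with 98.8% and 82.9% of its reads from 1 cell of each set. Nascent mesoderm genes (11) were higher in 2, Phlda2 and Fgf10.

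High and other cells differed in Cdh1, and a comparison within cells of under 1 CPM of Cdh1 was added once the data had been seen. There the median of extraembryonic mesoderm was 0.76, of cardiac progenitor genes 0.74 and of epiblast genes -0.92. Hand1 then had a combined log2 ratio of 1.29, Tbx3 of 0.62, Phlda2 of 0.52, Fgf8 of -0.85 and Otx2 of -0.57. H19 (2.09), Dusp2 (2.19), Dok4 (2.18), Tal1 (3.63), Nkx2-5 (2.36), Bmp4 (1.28), Nodal (-2.32), Prickle1 (-2.65) and Mt1 (-2.17) were still past 2-fold in both sets. Of the 27 genes named by the rule 9 were past it in both sets, and 11 were when the next 20 cells by score were the comparison, among them Hand1 (1.26), H19 (1.87), Igf2 (2.41) and Nodal (-2.19). Igf2 was not past 2-fold in set 2 (0.40) among Cdh1-low cells. When Kdr alone ranked the cells, 19 of the 27 were past 2-fold in both sets, and Igf2 was among the 8 that were not, at 0.82 in set 1. Of the genes called in all cells, 47 higher and 85 lower were also called among the Cdh1-low cells. The shares called there were 1.14% higher and 2.01% lower of 12313 genes.

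The same score was read in the other groups, with the E6.75 cut of each set. In the knockout, all set 1, 2 of 85 cells (2.35%, 0.286 to 8.24%) lay at or above it, against 20 of 83 wild type cells of that set by choice (24.1%). The summed reads of those 2 cells gave 124.2 CPM of Etv2, 118.4 CPM of Kdr and 31.1 CPM of Hand1. Per cell, Etv2 was at 56.5 and 696.8 CPM, so the sum is far from both levels. Neither cell had a read of Tal1, Gata2 or Nkx2-5, which allows up to 1.53 CPM by the exact interval. In the wild type high cells of set 1, 3, 3 and 6 of 20 had a read of these genes. The lack of reads in 2 knockout cells therefore says little. At E7.25, 23 cells of set 1 (13.3%, 8.62 to 19.3%) and 40 of set 2 (23.8%, 17.6 to 30.98%) lay at or above the cut of their set. Their Etv2 was 360 and 155.8 CPM, against 782 and 415 CPM in the E6.75 high cells. Kdr went the other way, at 324.8 and 382.4 CPM against 218.5 and 274.03 CPM. Both genes chose the cells, so these levels describe the choice and are not a result. Tal1 was at 68.1 CPM and read in 13 of 23 cells of set 1, and at 11.77 CPM and in 6 of 40 of set 2; H19 was at 154.3 and 219.1 CPM, and Bmp4 at 110 and 98.1 CPM. Cdh5 was at 0 and 0.22 CPM there, and Tie1 at 0 and 0.12 CPM. Tek was at 8.35 CPM in set 1, read in 4 of 23 cells, and at 0.023 CPM in set 2. No E6.75 high cell had a Tek read. Pecam1 was at 0.047 CPM in set 1 and at 2.94 CPM in set 2, there read in 5 of 40 cells. In the E6.75 high cells Pecam1 was at 0.080 and 0.058 CPM. The stages and genotypes are 1 sample each per set, so these shares were not tested against each other.

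**Figure D5:**
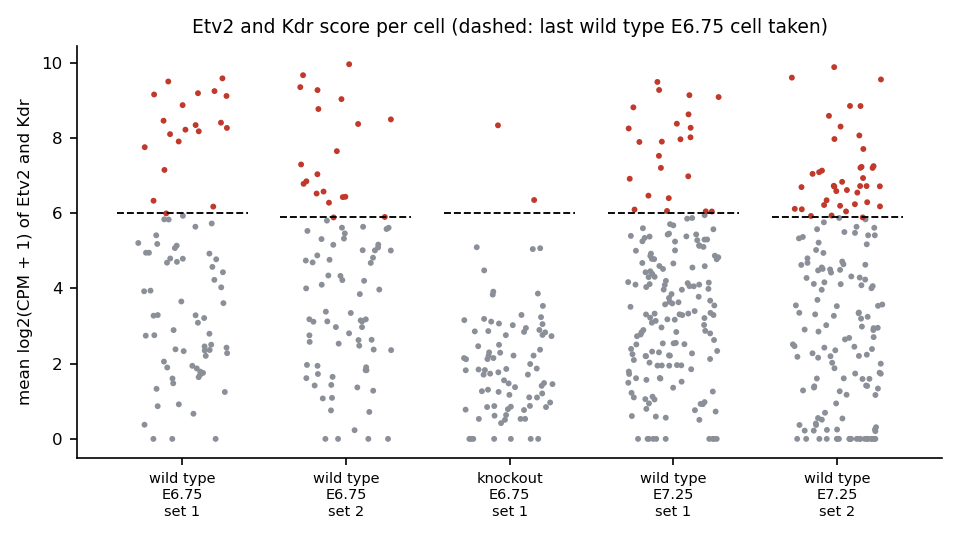
Mean log2(CPM + 1) of Etv2 and Kdr per cell (vertical) in each group and library set; each point is 1 cell, red points lie at or above the dashed line, the score of the last E6.75 wild type cell taken in that set. In the knockout 2 of 85 cells lie above it, and at E7.25 13.3% of set 1 and 23.8% of set 2.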

How the data were processed

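The labels list 598 single Mesp1-GFP+ cells: 172 wild type (E6.75), 85 KO (E6.75) and 341 wild type (E7.25: 173 in set 1, 168 in set 2). The authors deposited a table of unnormalized counts, 1 column per cell; GSNAP, HTSeq (0.5.3p3) and mm10 are named, per the submitters' processing notes. The annotation release, strand setting and cell filters: not given in the sources used here, and reads of a gene and of an antisense or near-identical copy (such as keratin pseudogenes) cannot be told apart here. Of 40912 genes 40254 matched a symbol in GENCODE M21 (GRCm38). Columns with no sample numbered 0.

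Counts were summed over cells per arm and set and scaled to CPM (Python 3.11.15, pandas 2.3.3). Of 12572 tested genes 120 were higher and 257 lower in both sets. Tested genes had at least 1 CPM in each set, and Etv2 and Kdr were left out. The members and the 30 gene lists were chosen with earlier results of these data known. Named genes were called in both sets, at least 20 CPM and read in 25% of cells in the higher arm of each set; the 15 higher and 12 lower with the largest mean difference of log2(CPM + 1) per cell were taken. Alternatives included scaling factors from edgeR 4.0.16 (TMM) and DESeq2 1.42.0, used for scaling only. The steps were tested on simulated counts. No doublet caller was run, and library sets were defined from the data. Promoters are from RefSeq (GRCm38.p6).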

Additional observations from a re-analysis of the deposited data

How the results depend on the processing

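No paired analysis was possible because cell numbers in the labels only name cells and no test was run. The share of genes higher in both sets (0.955%) moved to 0.199% with 10 CPM added, 0.676% at a minimum of 5 CPM, 6.85% in set 1 alone and 3.02% in set 2 alone. The share of genes lower (2.04%) moved to 0.477% with means of log2 values per cell, 0.199% with 10 CPM added, 1.26% at a minimum of 5 CPM, 5.23% with the 10 highest cells per set, 1.17% with the 30 highest, 13.2% in set 1 alone and 4.59% in set 2 alone. The larger shares of single sets follow from asking for 1 set in place of both. With the 10 highest cells the median over all genes shifted to -0.14; in each other setting it lay within 0.1 of 0.

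The median of the haemato-endothelial factors (-0.14) moved to 0.25 with mean logs, -0.29 with the 30 highest cells, 0.0036 with Kdr alone as the score, 0.013 without the 2 deepest high cells per set and 0.043 in set 2 alone. That of the endothelial surface genes (-0.20) moved to 0.12 with mean CPM, 0.095 with mean logs, 0.079 with thinned cells, -0.029 at 5 CPM, -0.025 with the 30 highest cells, 0.15 with Kdr alone, -0.040 without the 2 deepest and -0.37 in set 1 alone. Among alternatives added once the data had been seen, the factors' median was 0.39 against the next 20 cells and -0.37 with set 1 cells holding Y-linked reads, where the surface genes had 0.0042.

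Directions turned for the apelin, chemokine and sphingosine list (0.40 at 5 CPM, 0.0094 at 1 read per set, 0.40 in cells under 1 CPM of Cdh1), for Elk3 (0.24) and Myl7 (-0.19) with Kdr alone, for Cdh1 (0.037, by construction), Kit (0.31) and Atf3 (-0.79) in cells under 1 CPM of Cdh1, and for Tal1 (-0.051) without its 4 cells; apart from Cdh1 and Tal1 the cause was not tested. Without the 2 deepest high cells Tbx3, Pth1r, Esrp1, Prom1, Krt18, Kit, Dnd1 and Atf3 were no longer 2-fold in both sets.

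Cdh1 was read in 55% of the high cells of set 2 as deposited and in 20% after thinning. Taking the cut at rank 10 or 30 of the wild type cells put 0% of knockout cells above it at rank 10, 4.05% and 26.01% of E7.25 cells of set 1, and 5.95% and 32.1% of those of set 2. The highest knockout cell scored 8.336, just under the rank 10 cut of 8.343. With 20 high cells per set, 0 cells with a read allow a share of up to 15%. For the 63 and 69 other cells the limits are 4.76% and 4.35%.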
